A study of Mus musculus with 15 samples.

Results

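The enzyme families that act on arginine and on methylated arginine were followed in CT26 cells with reduced Prmt1 expression or given a PRMT1 inhibitor. They comprise 6 of the 34432 genes listed, the arginine deiminases Padi1, Padi2, Padi3 and Padi4 and the dimethylarginine hydrolases Ddah1 and Ddah2. The genes were taken by name from both tables of normalized counts, and they were chosen by their log2 differences between each treated group and its own controls. Their differences in those comparisons are therefore given as a description, without a test. Padi2 was lower and Ddah1 was higher, with no overlap between libraries, in shPrmt1 cells and under either inhibitor.

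CT26 is an established mouse colon carcinoma line, and RNA-sequencing covered 15 libraries in 2 experiments, each group being labelled as 3 biological replicates. In the knockdown experiment a control hairpin (shControl) was compared with a Prmt1 hairpin (shPrmt1). The Prmt1 hairpin was doxycycline-inducible in a puromycin-selected stable line, and these cells had been given doxycycline for 3 days. Whether shControl cells were given doxycycline was not stated in the sources used here, so an effect of the drug cannot be told apart from that of the hairpin. In the inhibitor experiment cells labelled as wild type were given vehicle, MS023 or GSK3368715. Both compounds inhibit type I protein arginine methyltransferases, and both were used at 6 µM for 48 hours. All cells were of the same line in culture, without immune or stromal partners.

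PRMT1 is the main enzyme that places asymmetric dimethylarginine on proteins. When methylated proteins are degraded, free asymmetric dimethylarginine is released, which inhibits nitric oxide synthases, and DDAH1 hydrolyses it to citrulline and dimethylamine. DDAH2 is its paralog, whose activity on this substrate is disputed. Arginine deiminases convert arginine residues within proteins to citrulline, so that the residue can no longer be methylated. PADI2 is the most widely expressed deiminase, PADI1 and PADI3 are known from epidermis and hair follicle, PADI4 from granulocytes, and PADI6 from the oocyte.

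The 4 deiminases lie side by side on chromosome 4 of GRCm38 (mm10). Padi2 (ENSMUSG00000028927) spans 140906344 to 140952586 on the plus strand. Padi1 (ENSMUSG00000025329, 140812983 to 140845778), Padi3 (ENSMUSG00000025328, 140785365 to 140810648) and Padi4 (ENSMUSG00000025330, 140745865 to 140774236) are on the minus strand. Ddah1 (ENSMUSG00000028194) spans 145758675 to 145894277 on the plus strand of chromosome 3, and Ddah2 (ENSMUSG00000007039) spans 35059035 to 35062095 on the plus strand of chromosome 17. Exons of Padi2 overlap the antisense gene Gm13031 by 149 bases, and the exon of Padi1 overlaps the opposite-strand gene Gm13032 by 1200 bases. Neither partner was among the genes listed, so neither could be analysed. Whether quantification used strand was not stated, so reads within these overlaps could not be assigned to 1 strand.

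The promoters of Padi2 and Ddah1 are shown because these were the 2 members whose libraries separated from controls in every comparison with controls. Of all genes, 38% separated in the knockdown, 44.5% with MS023 and 27.7% with GSK3368715. The share that separated in every comparison was not computed. The promoter of Padi1 is shown because Padi1 is the nearest paralog to Padi2. The sequences were taken from RefSeq (GRCm38.p6) and run from 250 to 21 bases before the annotated start, 5′ to 3′ on the gene's own strand, with CpG dinucleotides in capitals. They lie at chr4:140906110-140906339 (plus strand) for Padi2, chr4:140845799-140846028 (minus strand) for Padi1 and chr3:145758442-145758671 (plus strand) for Ddah1.
Padi2: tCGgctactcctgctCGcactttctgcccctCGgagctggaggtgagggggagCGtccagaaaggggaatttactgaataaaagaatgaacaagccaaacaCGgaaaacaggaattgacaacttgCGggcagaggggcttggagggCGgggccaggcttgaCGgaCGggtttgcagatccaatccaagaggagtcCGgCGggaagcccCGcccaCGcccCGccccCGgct
Padi1: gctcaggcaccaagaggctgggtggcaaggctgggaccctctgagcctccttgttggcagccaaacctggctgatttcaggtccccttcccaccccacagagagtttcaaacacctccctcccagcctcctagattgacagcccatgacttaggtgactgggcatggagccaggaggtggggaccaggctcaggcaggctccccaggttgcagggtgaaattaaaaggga
Ddah1: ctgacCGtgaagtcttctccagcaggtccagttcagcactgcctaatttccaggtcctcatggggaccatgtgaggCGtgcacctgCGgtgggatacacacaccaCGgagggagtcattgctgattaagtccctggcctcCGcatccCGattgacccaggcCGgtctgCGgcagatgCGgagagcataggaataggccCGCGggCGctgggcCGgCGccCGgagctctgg

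All 6 members had an entry. The Padi2 and Ddah1 windows each held 15 CpG dinucleotides, whereas those of Padi1, Padi3, Padi4 and Ddah2 held 0, 3, 3 and 4, and the median over 32851 promoter windows of the same length was 5. The G and C content was 60.9% for Padi2, 59.6% for Padi1 and 63.0% for Ddah1, against a median of 51.7%, so the Padi1 window was similarly rich in G and C without a CpG. Of the motifs searched on both strands, the GC box (GGGCGG) had 3 matches in the Padi2 window, 1 each in those of Padi3 and Ddah2, and 0 in those of Padi1, Padi4 and Ddah1, and it was present in 29.8% of all windows. The CCAAT box (CCAAT, in 32.2% of windows) matched once for Padi2 and 2 times for Padi3. The Padi4 window held a TATA box (TATAAA, in 11.8%) and an AP-1 site (TGANTCA, in 6.34%), which the other 5 lacked. The E-box (CACGTG, in 5.35%) and the E2F site (TTTCCCGC, in 0.804%) had 0 matches in the 6 windows. These matches describe letters only, since binding and DNA methylation were not measured.

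The number of reads on genes ranged from 17284091 to 29233738 in the knockdown experiment and from 40119305 to 93697833 in the inhibitor experiment, and the tables of the 2 experiments were normalized separately. The targeted gene was reduced in every shPrmt1 library, with Prmt1 at 5601, 5717 and 5620 normalized counts (reads divided by a library's size factor) in shControl and 669, 761 and 683 in shPrmt1, a remaining 12.5% (limma, adjusted p = 3.79e-07, n = 3 per group). Under the inhibitors Prmt1 RNA differed from vehicle by -0.07 (MS023) and -0.01 (GSK3368715) on the log2 scale, neither past the threshold (limma, adjusted p = 0.351 and 0.914). The cell type label was checked against epithelial markers. Epcam had 0 reads in every library, and the mean of Cdh1 was at most 1.48 normalized counts in any group, whereas Krt18 and Krt20 were present, and at most 3 of the 8 markers reached 10 normalized counts in every library of a group. Their summed level was 724 to 810 in shControl and 541 to 661 in shPrmt1 libraries, and 1245 to 1415 with vehicle, 1760 to 1851 with MS023 and 1408 to 1609 with GSK3368715, and its part in the results was not tested. Of 7 mesenchymal markers 6 were at 10 or more in every library, and Vim reached a group mean of 200055. Their summed level was 101768 to 107426 in shControl and 89825 to 108723 in shPrmt1 libraries, and 331258 to 347255 with vehicle, 305871 to 336006 with MS023 and 322277 to 349710 with GSK3368715. Within this list the mean of Col1a1 was 2116 in shControl and 4207 in shPrmt1 cells, that of Col3a1 110 and 212, and that of Pdgfrb 242 and 391. The means of Pdgfra (268 and 186), Vim (68130 and 64325) and Col1a2 (33525 and 31151) were lower in shPrmt1 cells, and Thy1 was at 0. The part of these genes in the results was not tested. Of 6 keratinocyte markers 1 reached 10 in every library. The keratinocyte genes Flg and Ivl and the neutrophil gene S100a9 were at 0 in every library, and 0 of 6 neutrophil markers and 0 of 5 T cell markers reached 10 in every library of any group.

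Padi2 was the most abundant deiminase and the member with the largest log2 difference of the 5 tested in each comparison with controls. In shControl cells its normalized counts were 417, 257 and 366, and in shPrmt1 cells they were 125, 66.7 and 89.8. All 3 knockdown libraries lay below the lowest control library. The mean was 347 ± 81.9 in shControl and 93.7 ± 29.2 in shPrmt1 cells (SD, n = 3 each), which is 27.0% of the control. The log2 difference was -1.89 (SE 0.25), and 19 of the 11485 genes tested were lower on this scale. As cultures were sequenced in bulk, fewer cells that express a gene cannot be told apart from less RNA per cell.

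Padi2 was also lower under both inhibitors. It had 803, 648 and 715 normalized counts with vehicle, 444, 328 and 250 with MS023, and 460, 250 and 344 with GSK3368715. The 6 inhibitor libraries all lay below the 3 vehicle libraries, and those of MS023 and GSK3368715 overlapped. The means were 722 ± 77.7, 341 ± 97.4 and 351 ± 105 (SD, n = 3 each), so that 47.2% and 48.6% of the vehicle mean remained. Log2 differences from vehicle were -1.12 (SE 0.23) for MS023, with 166 of 13014 genes lower, and -1.08 (SE 0.23) for GSK3368715, with 89 lower. Both comparisons share the vehicle libraries.

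The spread of Padi2 between libraries was wide within every group. Its coefficient of variation was between 10.8% in vehicle and 31.1% in shPrmt1 cells, from 2.74 to 5.34 times the value that counting of its reads alone would give. An excess over counting was not particular to Padi2. Over the groups the same ratio was 0.58 to 4.22 for Ddah1 and 0.87 to 6.16 for Prmt1. Library 1 held the highest Padi2 value in each of the 5 groups. The replicate numbers did not mark a shared batch in the labels.

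**Figure D1:**
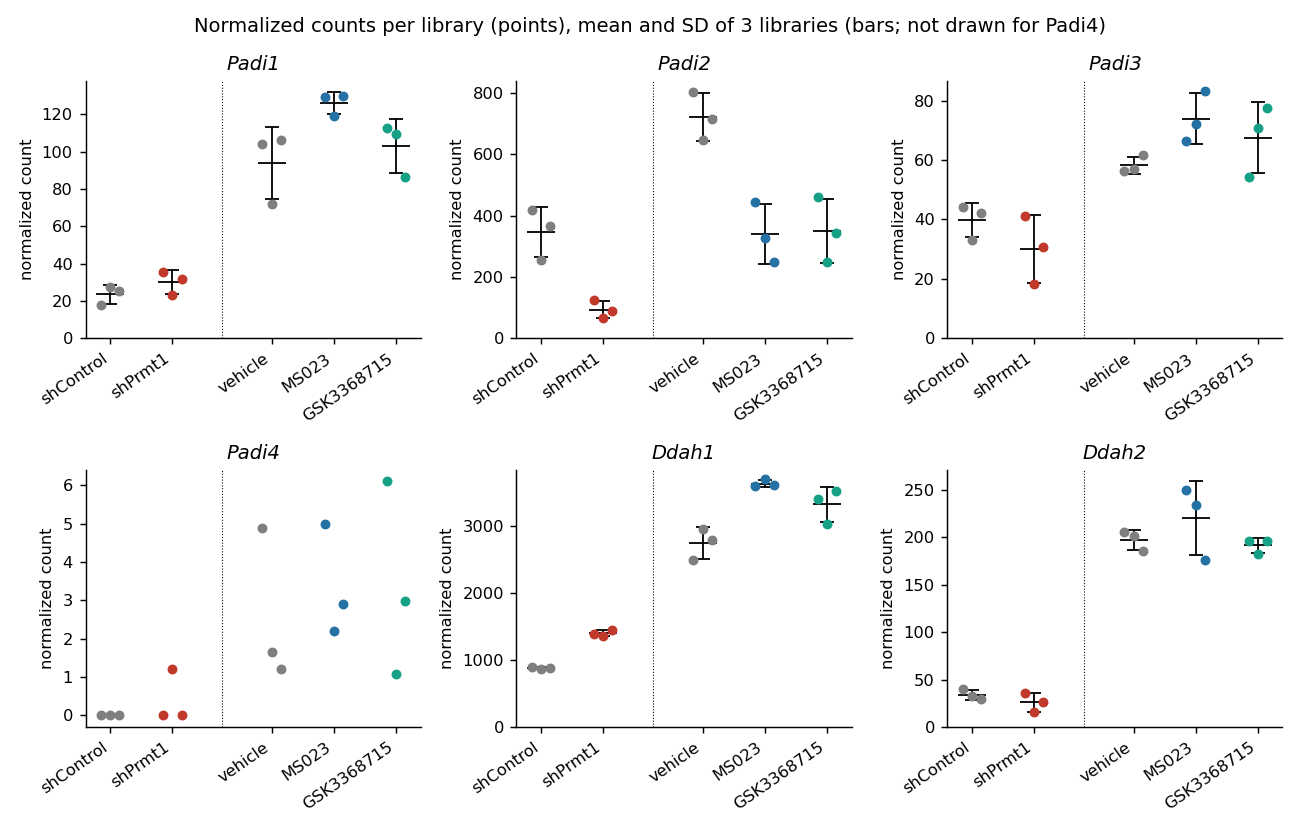
Normalized counts (y axis, linear) of the 6 members in each library of the 5 groups (x axis, knockdown experiment left and inhibitor experiment right of the dotted line); points are libraries, and bars are the mean and SD of 3, except for Padi4, which has points alone. Padi2 lies between 66.7 and 125 in shPrmt1 cells against 257 to 417 in shControl, and Ddah1 between 1364 and 1448 against 858 to 889, while the groups of Padi3 and Ddah2 overlap in the knockdown.

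The other deiminases were present at far fewer reads. Padi1, an epidermal deiminase, had 17.6, 27.4 and 25.4 normalized counts in shControl and 35.4, 23.0 and 31.6 in shPrmt1 libraries. These groups overlapped, each resting on 81 reads in all, and the log2 difference was 0.35 (SE 0.28). With vehicle it had 104, 71.8 and 106, with MS023 129, 119 and 130, and with GSK3368715 113, 110 and 86.3. All MS023 libraries lay above vehicle (log2 difference 0.44, SE 0.18), whereas those of GSK3368715 overlapped with it (0.14, SE 0.18).

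Padi3, the deiminase of the hair follicle, had 44.0, 33.1 and 42.0 normalized counts in shControl and 41.2, 18.2 and 30.6 in shPrmt1 libraries. The groups overlapped, with a log2 difference of -0.46 (SE 0.31) and of -0.15 without shPrmt1 library 2, the lowest. Padi3 was lower in each shPrmt1 library than in the shControl library of the same number, which may mark pairs in the knockdown. In the inhibitor experiment it had 56.2, 56.9 and 61.5 with vehicle, 66.2, 72.2 and 83.3 with MS023, and 54.1, 70.9 and 77.3 with GSK3368715. The MS023 libraries lay above vehicle (log2 difference 0.33, SE 0.19), and those of GSK3368715 lay on either side of it (0.19, SE 0.19). The means of Padi1 and Padi3 under either inhibitor were thus above vehicle where that of Padi2 was below, except that Padi1 with GSK3368715 turned to -0.04 without vehicle library 2.

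Padi4, the deiminase of granulocytes, was at the limit of detection. It had 0 reads of 72522284 in the shControl libraries, which allows up to 3 reads, and 1 read in the shPrmt1 libraries. It had 7 reads over the vehicle libraries, 11 with GSK3368715 and 13 with MS023. Per read on genes the ratio to vehicle was 1.54 (95% interval 0.569 to 4.55) for MS023 and 1.56 (0.552 to 4.75) for GSK3368715. These exact intervals cover counting error only, and a difference of Padi4 was not detectable at this depth. Padi6, the oocyte member of the family and not one of the 6 genes, had 0 reads in the knockdown experiment and at most 1 read per library in the other.

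Ddah1, the enzyme that degrades free asymmetric dimethylarginine, differed in the opposite direction to Padi2. It had 889, 858 and 882 normalized counts in shControl and 1393, 1364 and 1448 in shPrmt1 libraries. The lowest knockdown library lay far above the highest control library, and libraries within a group differed little. The mean was 877 ± 16.3 in shControl and 1402 ± 43.0 in shPrmt1 cells (SD, n = 3 each), 160% of the control, with a log2 difference of 0.68 (SE 0.06) that 478 of 11485 genes exceeded.

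With vehicle Ddah1 had 2494, 2950 and 2797 normalized counts, with MS023 3593, 3699 and 3609, and with GSK3368715 3405, 3037 and 3529. Every inhibitor library lay above every vehicle library, but GSK3368715 library 2 exceeded the highest vehicle library by little. The means were 2747 ± 232, 3634 ± 57.2 and 3324 ± 256 (SD, n = 3 each), or 132% and 121% of vehicle. The log2 differences were 0.41 (SE 0.07) for MS023 and 0.28 (SE 0.07) for GSK3368715, and 1541 and 1644 of 13014 genes were higher.

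Ddah2 had 39.6, 32.4 and 29.9 normalized counts in shControl and 35.4, 15.8 and 26.5 in shPrmt1 libraries. The groups overlapped (log2 difference -0.44, SE 0.31), and shPrmt1 library 2 was again the lowest. Without that library the difference was -0.13, and Ddah2 was lower in each shPrmt1 library than in the shControl library of its number. In the inhibitor experiment it had 205, 201 and 186 with vehicle, 251, 234 and 176 with MS023, and 196, 183 and 196 with GSK3368715, and neither inhibitor group separated from vehicle (0.14, SE 0.14, and -0.04, SE 0.14). It took 117 of the 72522284 reads on genes in the shControl libraries and 566 of the 171898694 in the vehicle libraries, a difference between separate experiments that was not tested.

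In each fit 5 of the 6 members passed the minimum of 10 normalized counts in at least 3 libraries, all but Padi4. The groups of 2 members in the knockdown, 4 under MS023 and 2 under GSK3368715 did not overlap, beside 38%, 44.5% and 27.7% of all genes. The median log2 difference of the 5 was -0.44, 0.33 and 0.14, against 0.00 over all genes in each comparison. Since the genes were chosen from these comparisons, nothing is read from their share.

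**Figure D2:**
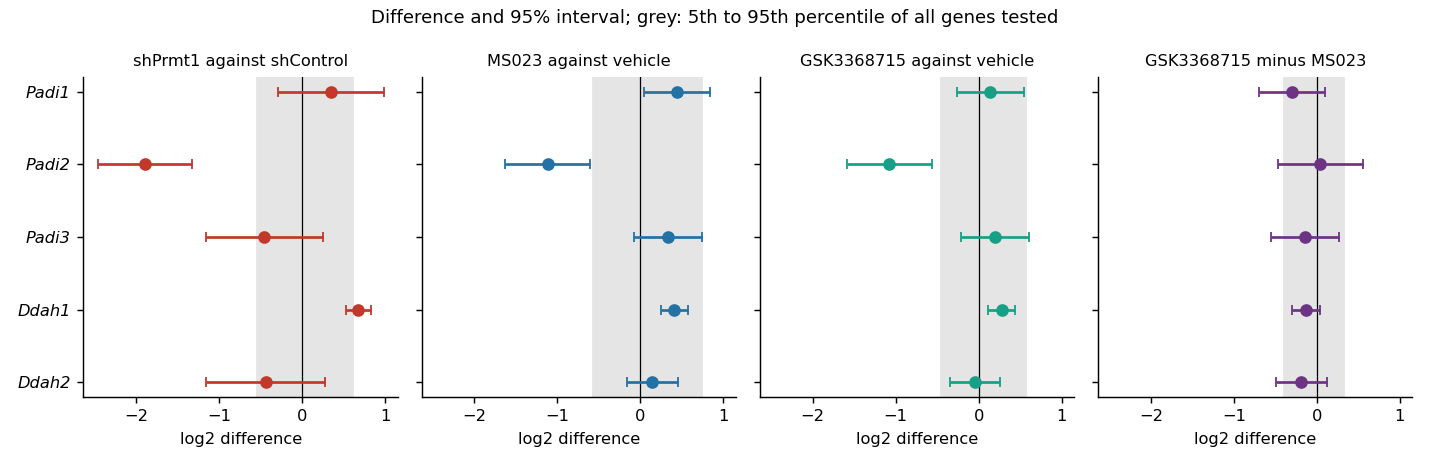
Log2 difference of normalized counts (x axis) with its 95% interval for the 5 members that passed the minimum (y axis), in 4 comparisons; grey bands hold the 5th to 95th percentile of all genes tested. Padi2 lies left of the band at -1.89, -1.12 and -1.08 and at 0.04 between the inhibitors, and Ddah1 lies right of the band in the knockdown alone, at 0.68.

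The direct comparison of the 2 inhibitors at the same dose and time was not itself used to choose the genes, and it was tested. It shares the libraries of both inhibitor groups with the comparisons that were used, so it is not independent of the choice. Of the 5 members limma called 0, with 0 at an unadjusted p below 0.05 and 0 by edgeR or DESeq2, where 0.515% of all genes were called. For Padi2 the log2 difference of GSK3368715 minus MS023 was 0.04 (95% interval -0.47 to 0.55, adjusted p = 0.958), an interval that leaves room for a difference in either direction. For Ddah1 it was -0.13 (-0.30 to 0.03, adjusted p = 0.494), with all GSK3368715 libraries below those of MS023. The GSK3368715 libraries were also all below those of MS023 for Padi1 (-0.30, -0.70 to 0.10, adjusted p = 0.524), and 21.4% of all genes did not overlap in this comparison (9.95% lower with GSK3368715). Padi3 differed by -0.14 (-0.55 to 0.27, adjusted p = 0.797) and Ddah2 by -0.19 (-0.49 to 0.12, adjusted p = 0.615). These intervals do not show that the compounds act alike. The sign for Padi2 turned to -0.18 without GSK3368715 library 1 and to -0.16 without MS023 library 3, and that for Padi3 turned to 0.0089 without GSK3368715 library 1.

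To compare levels between genes, normalized counts were divided by the length of all exons in kb. Per kb, the order in shControl cells was Ddah1 at 220 ± 4.09, Padi2 at 69.2 ± 16.3, Ddah2 at 21.3 ± 3.18, Padi3 at 11.5 ± 1.68 and Padi1 at 6.25 ± 1.38 (SD, n = 3). In shPrmt1 cells the ranges of Padi2 (18.7 ± 5.82 per kb) and Ddah2 (16.3 ± 6.19) overlapped, as did those of Padi3 (8.70 ± 3.34) and Padi1 (8.0 ± 1.69). Within each shPrmt1 library Padi2 was above Ddah2, at 24.9, 13.3 and 17.9 against 22.2, 9.89 and 16.7 per kb. With vehicle the mean per kb was 144 ± 15.5 for Padi2 and 124 ± 6.51 for Ddah2. Padi2 was again above Ddah2 in each library, at 160, 129 and 143 against 129, 126 and 117. Under the inhibitors this order turned, with Ddah2 at 138 ± 24.5 per kb above Padi2 at 67.9 ± 19.4 for MS023, and at 120 ± 4.89 above 70.0 ± 20.9 for GSK3368715. The longest transcript holds 1342 of the 1593 exon bases of Ddah2 and 4774 of the 5013 of Padi2. In shPrmt1 and vehicle libraries, where these 2 genes were close, their order depends on the length used. Ddah2 also rested on 13 to 31 reads in a shPrmt1 library. Padi1 exceeded Padi3 per kb in all 3 groups of the inhibitor experiment, at 25.0 ± 5.11 against 16.9 ± 0.83 with vehicle.

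Summed per kb, the 4 deiminases with Padi6 were lower in every treated group, by a smaller factor than Padi2 alone. Padi6 added at most 0.432 per kb in a library. The sum was 86.9 ± 16.8 in shControl and 35.5 ± 10.6 in shPrmt1 cells, and 186 ± 20.1 with vehicle, 124 ± 17.6 with MS023 and 118 ± 19.8 with GSK3368715 (SD, n = 3). Padi2 made up 79.1% ± 3.73 of the sum in shControl, 52.6% ± 1.56 in shPrmt1, 77.3% ± 1.54 in vehicle, 54.1% ± 8.06 in MS023 and 58.6% ± 8.06 in GSK3368715 libraries. Padi1 plus Padi3, nearly all of the rest, was 17.8 ± 1.07 in shControl and 16.7 ± 5.01 per kb in shPrmt1 cells. In the inhibitor experiment it was 41.9 ± 5.53 per kb with vehicle, 55.0 ± 3.25 with MS023, whose libraries all lay above vehicle, and 47.0 ± 2.41 with GSK3368715, whose libraries overlapped with it. The 2 hydrolases together were at 241 ± 6.24 per kb in shControl and 368 ± 14.4 in shPrmt1 cells, and Ddah1 made up between 84.7% and 95.6% of their sum in the group means. The ratio of Ddah1 to Padi2 per kb was 3.31 ± 0.80 in shControl and 20.04 ± 5.84 in shPrmt1 cells. In the inhibitor experiment it was 4.85 ± 0.91 with vehicle, 14.2 ± 3.99 with MS023 and 12.5 ± 3.00 with GSK3368715. No treated library reached down to a control library in this ratio, which combines values used to choose the genes.

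**Figure D3:**
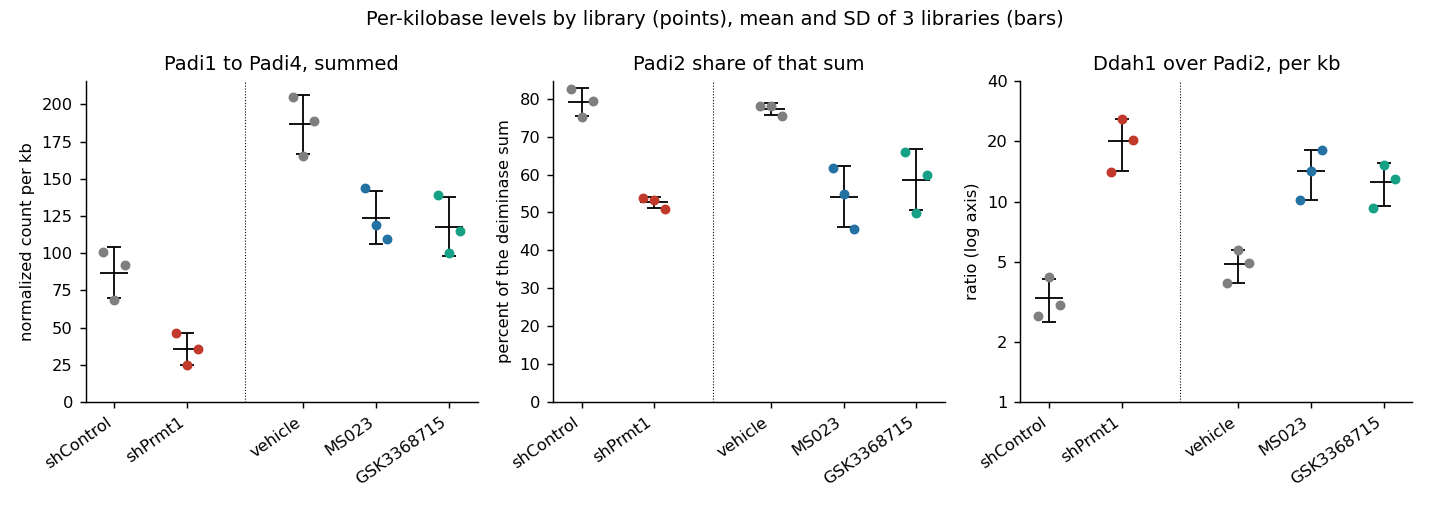
Summed level of the 4 deiminases with Padi6 per kb of exon (left, linear axis), share of Padi2 in that sum in percent (middle) and the ratio of Ddah1 to Padi2 per kb (right, log axis) in each library of the 5 groups (x axis). Bars are the mean and SD of 3. The title of the left panel leaves out Padi6. The share of Padi2 is between 75.2% and 82.7% in shControl and between 50.9% and 53.8% in shPrmt1 libraries, and the ratio is at most 5.73 in a control and at least 9.32 in a treated library.

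The genes that flank the members were examined as genes that the choice had not used. Within 100 kb of the deiminases lie 7 other annotated protein-coding genes, 5 of which were tested. Of these, 1, 1 and 0 were called in the knockdown, with MS023 and with GSK3368715, beside 14.7%, 27.9% and 9.64% of all genes. Sdhb, a subunit of succinate dehydrogenase whose gene lies 8.62 kb from Padi2, differed by -0.06 in the knockdown, -0.13 with MS023 and -0.05 with GSK3368715 on the log2 scale (limma, adjusted p = 0.547, 0.144 and 0.647), and the MS023 difference passed without vehicle library 3 (-0.19, adjusted p = 0.0441). Rcc2, a regulator of mitosis 22.6 kb beyond Padi4, fell by 0.34 in shPrmt1 cells (limma, adjusted p = 0.0334) and rose by 0.19 with MS023 (adjusted p = 0.0211). The first call was lost without trend (limma, adjusted p = 0.0825), at the same total (0.0531) and without any 1 shControl library (up to 0.125) and the second without MS023 library 3 or vehicle library 2 (up to 0.0879). It differed by 0.15 with GSK3368715, which did not pass (limma, adjusted p = 0.108). Atp13a2, Crocc and Arhgef10l were called in none of the 3 comparisons by limma, with adjusted p-values from 0.0825 to 0.986.

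**Figure D4:**
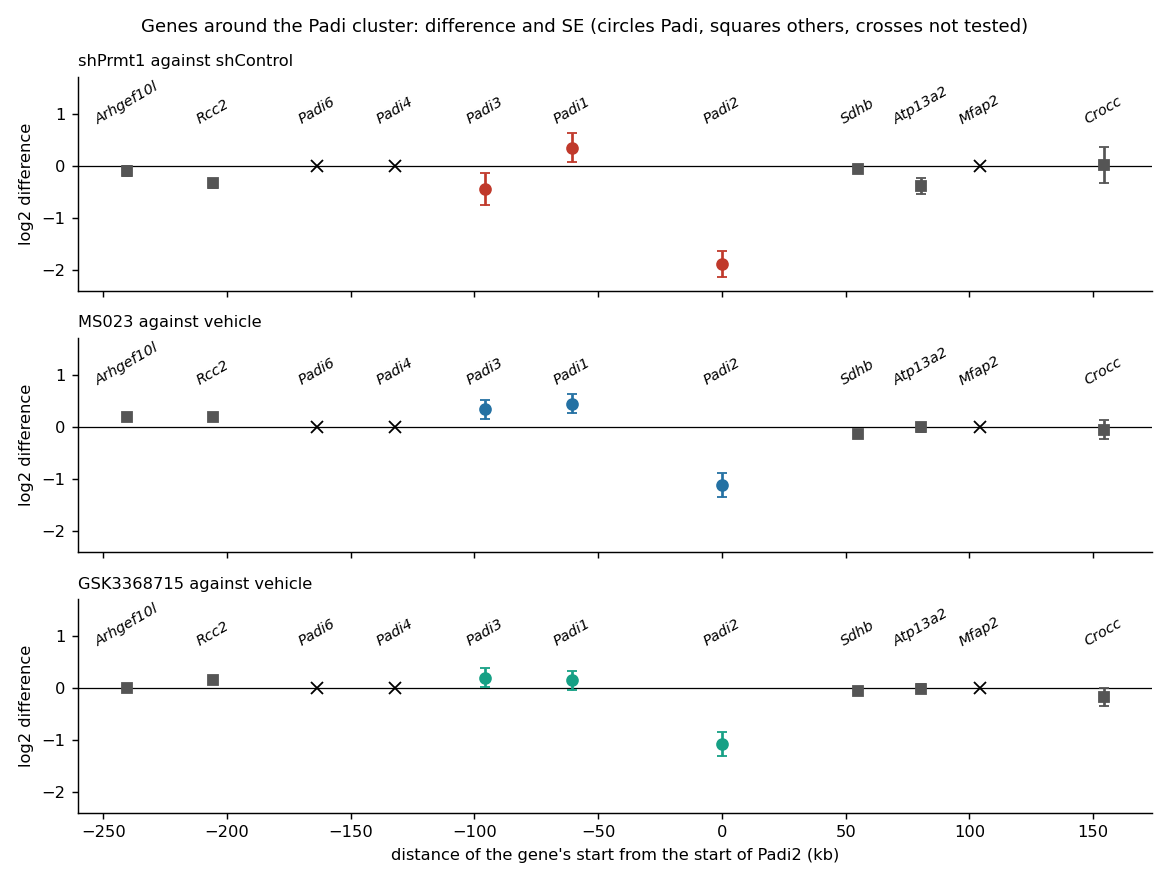
Log2 difference (y axis, with SE) of each gene around the deiminase cluster against the distance of its start from that of Padi2 in kb (x axis), in the knockdown and for each inhibitor; circles are deiminases, squares are other genes, and crosses are genes that were not tested. Padi2 is the lowest point in each panel, at -1.89, -1.12 and -1.08, and its neighbour Sdhb lies at -0.06, -0.13 and -0.05.

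Around Ddah1, 2 of 3 neighbours were tested. The gene 2410004B18Rik, 43.7 kb away, rose by 0.25 on the log2 scale with MS023 (limma, adjusted p = 0.0129) and differed by 0.38 in the knockdown and 0.19 with GSK3368715, which did not pass (adjusted p = 0.0775 and 0.0888). Without MS023 library 1 the first call was lost (limma, adjusted p = 0.0546). In the knockdown the gene was called by DESeq2 (adjusted p = 0.0310). Bcl10, an adaptor of NF-kB signalling 28.5 kb away, differed by -0.20, -0.12 and -0.11 in the 3 comparisons (limma, adjusted p = 0.0760, 0.154 and 0.267). Ddah2 lies in the gene-dense major histocompatibility region with 24 neighbours, of which 11 were tested in the knockdown and 13 with the inhibitors. Of these, 2 were called in the knockdown and 1 with each inhibitor, beside 14.7%, 27.9% and 9.64% of all genes. Of those tested, Vars, the valyl-tRNA synthetase, fell by 0.78 in the knockdown, 0.79 with MS023 and 0.42 with GSK3368715 (limma, adjusted p = 0.0169, 2.08e-05 and 0.00221), and Bag6, a chaperone, fell by 0.25 in the knockdown (adjusted p = 0.0342). In the knockdown Vars was not called without shControl libraries 1 or 3 (limma, adjusted p up to 0.0733) or without trend (0.0530). Bag6 was not called there without any 1 library but shPrmt1 library 2 (limma, adjusted p up to 0.154), without trend (0.0773) or at the same total (0.0580).

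Other genes of arginine and methylarginine metabolism were taken from lists of methyltransferases, nitric oxide synthases and their cofactor supply, citrulline and urea cycle, arginine transport, polyamine, proline and creatine synthesis, methylarginine handling and deiminase substrates. Besides Prmt1, 40 of 61 listed genes were tested in the knockdown, of which 1 rose and 4 fell, or 12.5% beside 14.7% of all genes. In the inhibitor comparisons Prmt1 was counted among the 47 genes tested, also in the medians below. With MS023, 4 of the 47 rose and 10 fell, or 29.8% beside 27.9%. With GSK3368715 0 rose and 2 fell, or 4.26% beside 9.64%, with 11 at an unadjusted p below 0.05, 3 called by edgeR and 6 by DESeq2. Between the inhibitors limma called 0 of the 47, with 7 at an unadjusted p below 0.05, 0 by edgeR and 1 by DESeq2. The medians of these genes were -0.06, -0.07 and -0.05 in the 3 comparisons with controls, against 0.00 over all genes.

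Nitric oxide synthases, the targets of asymmetric dimethylarginine, were scarce. The inducible enzyme Nos2 had 55.0, 42.9 and 61.5 normalized counts with vehicle and 21.2, 25.2 and 33.9 with MS023, and all MS023 libraries lay below vehicle. Its log2 difference was -0.97 (SE 0.27; limma, adjusted p = 0.0212), and the call was lost without a filter and without any 1 of MS023 libraries 1 and 2 and vehicle libraries 1 and 3, at adjusted p-values up to 0.0782. With GSK3368715 Nos2 differed by -0.65 (adjusted p = 0.155), and in the knockdown experiment it had at most 1.44 normalized counts in a library. The endothelial enzyme Nos3 had 20.1 ± 2.59 with vehicle, 13.9 ± 3.45 with MS023 and 17.8 ± 2.58 with GSK3368715 (SD, n = 3), and neither difference passed (limma, adjusted p = 0.236 and 0.782). Nostrin, which traffics nitric oxide synthase, rose by 0.68 with MS023 (limma, adjusted p = 0.0285), a call that was lost under 6 of 20 alternatives, among them without MS023 libraries 2 or 3 or vehicle libraries 2 or 3, with adjusted p-values up to 0.117. In the knockdown 0 of 8 genes of this list were called by limma, edgeR or DESeq2, with 1 at an unadjusted p below 0.05.

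Of the enzymes that turn free citrulline back into arginine, the first was scarce and the second was present. Argininosuccinate synthase, Ass1, had at most 5.47 normalized counts in any library, whereas argininosuccinate lyase, Asl, was the only gene of the urea cycle list with enough reads to be tested. It had 463 ± 29.0 in shControl and 395 ± 43.2 in shPrmt1 cells, and 1999 ± 74.0 with vehicle, 2098 ± 122 with MS023 and 1961 ± 125 with GSK3368715 (SD, n = 3), and it was not called (limma, adjusted p = 0.174, 0.493 and 0.830). The arginases Arg1 and Arg2, which split arginine, and Agxt2, an alternative route for dimethylarginine, were at 0 in every library.

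Among arginine transporters Slc7a3, a cationic amino acid carrier of low level, was higher in every treated group. It rose from 7.41 ± 2.85 to 24.0 ± 6.02 normalized counts in the knockdown (SD, n = 3 each; log2 difference 1.61, limma, adjusted p = 0.0268) and from 41.8 ± 8.55 to 107 ± 18.8 with MS023 (1.35, adjusted p = 0.00151). With GSK3368715 it had 69.8 ± 11.8 (0.73, limma, adjusted p = 0.0598; 0.0454 without vehicle library 1), and the difference between the inhibitors did not pass (adjusted p = 0.267). The knockdown call was lost without shControl libraries 1 or 3 or shPrmt1 libraries 2 or 3, with adjusted p-values up to 0.0878. The main carrier Slc7a1 fell by 0.34 with MS023 (limma, adjusted p = 0.00637) and differed by -0.06 in the knockdown and -0.15 with GSK3368715 (adjusted p = 0.526 and 0.223). Slc7a7 rose by 0.80 with MS023 (limma, adjusted p = 0.0472), but was not called under 12 of 20 alternatives, with adjusted p-values up to 0.130.

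Of the genes for polyamine and creatine synthesis, ornithine decarboxylase, Odc1, differed by 0.08 in the knockdown and by -0.08 with either inhibitor (limma, adjusted p = 0.456, 0.382 and 0.458). Its inhibitor, antizyme Oaz1, fell by 0.83 in shPrmt1 cells, from 5631 ± 75.3 to 3179 ± 400.1 normalized counts (SD, n = 3 each; limma, adjusted p = 9.03e-04). It differed by -0.06 with MS023 and -0.05 with GSK3368715, and neither passed (limma, adjusted p = 0.569 and 0.714). Azin1, the antizyme inhibitor, fell by 0.52 with MS023 and 0.30 with GSK3368715 (limma, adjusted p = 7.78e-04 and 0.0312), the latter lost without GSK3368715 libraries 1 or 3, vehicle libraries 2 or 3 or MS023 library 3 (up to 0.0963). Gamt, which completes creatine synthesis, fell by 0.60 with MS023 (limma, adjusted p = 7.26e-04). The remaining calls of the knockdown were Aldh18a1 (proline synthesis), Jmjd6 (a protein hydroxylase) and the deiminase substrate Eno1, which fell by 0.24, 0.49 and 0.45 (limma, adjusted p = 0.0391, 0.00427 and 0.0176), and the other call for GSK3368715 was Jmjd6, which fell by 0.34 (adjusted p = 0.0264). Leaving out a library ended the calls of Aldh18a1 (any shControl library or shPrmt1 library 3, adjusted p up to 0.139 by limma), Eno1 (shControl libraries 1 or 3, up to 0.0766) and Jmjd6 for GSK3368715 (GSK3368715 library 2, 0.0772). Fitting without trend also ended the calls of Aldh18a1, Eno1 and, for GSK3368715, Jmjd6 and Azin1 (limma, adjusted p = 0.0845, 0.0558, 0.0603 and 0.0708). Aldh18a1 was further lost without a filter (0.0539) and at the same total (0.0720), and Jmjd6 for GSK3368715 with only the groups compared (0.0749). With MS023 Aldh18a1 also fell, by 0.43 (limma, adjusted p = 0.00777), whereas Jmjd6 and Eno1 were not called (0.0827 and 0.352). Prmt3, Prmt7 and Pts fell with MS023 by 0.39, 0.26 and 0.43 (limma, adjusted p = 0.00124, 0.0108 and 0.0075). Pycr1 and Srm fell by 0.46 and 0.26 and Prmt9 rose by 0.30 (limma, adjusted p = 0.0419, 0.0280 and 0.00549). These MS023 calls were not followed singly over the alternatives. They, Jmjd6 and Eno1 were named after their values were seen, as was Aldh18a1 in the knockdown.

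As a description of which genes moved like the members, values were centred on the control mean of their experiment and correlated over the 15 libraries for 11471 genes. The genes most like Padi2 were Lrrc45, Mrpl38 and Suds3 (Pearson r = 0.933, 0.932 and 0.926), and those most like Ddah1 were Arhgap35, Ptprj and Poln (0.976, 0.975 and 0.963). Padi3 was nearest to Clstn1, Snrnp25 and Slc27a4 (0.951, 0.939 and 0.938), Padi1 to Snx8, Alox8 and Tagap (0.890, 0.885 and 0.885), and Ddah2 to Tma7-ps, Sapcd2 and Ctbp1 (0.895, 0.882 and 0.872). Over the same libraries r was -0.859 between Padi2 and Ddah1 and 0.763 between Padi3 and Ddah2. These points share treatment groups and library depth.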

How the data were processed

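RNA-sequencing was analysed from 15 CT26 libraries. Per the labels and the methods, the authors quantified paired-end reads with Salmon 1.4.0 on mm10 and used DESeq2; the annotation was not given in the sources used here. The deposited values per gene are a normalized signal, reads divided by a size factor. Whole counts were recovered for 100% of values (within 0.01 of a whole number). They are rounded estimates from Salmon, called reads here, and the counting errors and exact intervals treat them as observed counts. The authors' comparison tables, which hold fold changes and p-values, were not used.

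Members, lists and tests were chosen with earlier results of these data known. Named pathway genes were those called with a log2 difference of at least 0.5, plus Nos2, Nos3, Ass1, Asl, Arg1, Arg2, Slc7a1, Odc1, Agxt2 and Padi6, and for likeness the 3 genes with the highest r per member. Log2(normalized count + 1) of genes with at least 10 normalized counts in 3 or more libraries was fitted with limma 3.58.1 (R 4.3.3; eBayes with trend; two-sided; Benjamini-Hochberg over all genes tested, threshold 0.05), on 6 knockdown libraries or on all 9 inhibitor libraries. This scale understates changes of low genes. P-values set a difference between groups against the spread between libraries. Alternatives used a pseudocount of 0.5 or 5, a filter at 50 or none, rescaling to the same total or upper quartile, no trend, a replicate block, fits of only the groups compared, edgeR 4.0.16 and DESeq2 1.42.0 on recovered reads, and each library left out. Positions and exon lengths came from GENCODE vM21. Markers for 7 cell types were examined; those of macrophages and endothelium reached 10 in every library for at most 3 of 5 and 1 of 4 genes in any group.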

Additional observations from a re-analysis of the deposited data

How the results depend on the processing

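Differences of the 5 members from their controls kept their sign under every alternative in which they were fitted, except Padi1 for GSK3368715, which lay between -0.04 and 0.26. For Padi2 they ranged from -2.12 to -1.67 in the knockdown, -1.33 to -0.91 with MS023 and -1.29 to -0.85 with GSK3368715, and for Ddah1 from 0.65 to 0.71, 0.34 to 0.46 and 0.21 to 0.34. Padi1, Padi3 and Ddah2 could not be fitted in the knockdown at a minimum of 50 normalized counts.

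Leaving out 1 library moved the number of genes called between 652 and 2472 (knockdown, 1684 with all), 2409 and 3726 (MS023, 3625), 586 and 1274 (GSK3368715, 1254) and 2 and 114 (GSK3368715 minus MS023, 67), with fewer samples in each fit. The pathway genes called moved between 2 and 6 (5 with all), 8 and 14 (14) and 1 and 4 (2). The difference between the inhibitors ranged from -0.18 to 0.26 for Padi2 and from -0.24 to 0.0089 for Padi3. Asl for GSK3368715 ranged from -0.079 to 0.0101 and turned to 0.0101 without GSK3368715 library 1 and to 0.0013 without vehicle library 2. With only the groups compared, GSK3368715 called 597 genes and 1 pathway gene, from fewer samples. The pathway count for GSK3368715 was 6 by DESeq2 and 1 without trend. The inhibitors differed in 365 genes by DESeq2, 8 without trend and 38 without a filter; the cause was not tested. Rescaling to the same total turned the split of higher and lower calls to 1082 and 666 in the knockdown (861 and 823 as reported) and to 2200 and 1509 for MS023 (1784 and 1841).

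The replicate number as a block called 2671 genes in the knockdown, 4 between the inhibitors and 0 pathway genes for GSK3368715, where Azin1 and Jmjd6 were lost (limma, adjusted p = 0.0674 and 0.0590), as was Nostrin for MS023 (0.0545), while 2410004B18Rik was called in the knockdown (0.0276). Deviations of same-numbered libraries correlated by 0.06, 0.12 and 0.08 in the knockdown, and those of differently numbered libraries by -0.09 to 0.03. Each library there was closest to its own number, so the numbers may mark pairs in the knockdown. The knockdown fit reported above did not use the block. With the block, Rcc2, Vars, Bag6 and the pathway genes called in the knockdown all stayed called by limma. In the inhibitor experiment same-numbered libraries correlated with mixed signs, and the numbers were not taken as pairs there.

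Depth limited Padi4 throughout, and Padi1, Padi3 and Ddah2 in the knockdown, where a library held from 13 to 50 reads of each.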
